A study of Drosophila melanogaster with 73 samples.

Results

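Abdominal fat bodies of flies on their second day at 18°C were compared with fat bodies of flies on days 4-5 at the same temperature, called settled here. The comparison used the 18°C libraries taken between ZT00 (lights on) and ZT12 (lights off). These were 7 libraries of day 2 and 15 libraries of days 4-5 (6 of day 4 and 9 of day 5), 22 of the 73 libraries in the series. All flies were mated females of the isogenic w1118 strain Iso31, entrained to 12 h of light and 12 h of dark at 25°C and those at 18°C were moved there at 7 days of age. The labels name no other genetic or drug treatment. Fat bodies of several flies were pooled in each library, and the tissue was dissected by hand and stayed attached to the epidermis. Levels are TPM, a relative abundance corrected for transcript length that sums to the same total in every library. Of 23932 genes, the 7458 with a median above 5 TPM in either group were tested.

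The fat body of an adult fly stores glycogen and triglyceride, detoxifies, secretes yolk, iron-binding and immune proteins into the hemolymph, and answers insulin. Insulin signalling passes from the receptor InR through the kinase Pdk1 to growth regulators such as TOR, S6k and foxo. Secreted proteins such as ImpL2, which binds insulin-like peptides, lower the signal that reaches other tissues. The TOR branch and the transcription factor Myc promote the production of ribosomes in growing insect cells.

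Day 2 had 1 library at each of 7 times, all of replicate 1, while days 4-5 had between 1 and 4 libraries at each time (11 of replicate 1 and 4 of replicate 2). At ZT00, ZT02 and ZT04 a single library of day 5 stood for the settled state. Flies of day 2 were also younger than those of days 4-5, so age and time spent at 18°C cannot be told apart within this comparison. Nothing states that the libraries came from separate cultures, so p-values measure the spread between these libraries. The sequencing depth cannot be read from TPM. The number of genes detected ranged from 11660 to 12810 over the 22 libraries. Correlations between libraries across tested genes ran from 0.862 to 0.977 (log2 scale). The defining fat body transcripts Yp1, Yp2, Yp3 (yolk proteins) and apolpp (lipophorin) were abundant in both groups, and the larval storage transcripts Lsp1gamma, Fbp1 and Fbp2 averaged under 1 TPM. Markers of neighbouring cells were present too. The 6 oenocyte markers summed to between 18338 and 28473 TPM, eggshell markers reached 9846 TPM in 1 library of day 2 and 13781 TPM in 1 of days 4-5, and gut markers reached 608.7 and 10346 TPM. The library of day 2 at ZT00 had the lowest summed fat body markers (21427 TPM) and hemocyte markers (2897 TPM). The replicate 2 library of day 5 at ZT06 had the highest muscle markers (8377 TPM) and oenocyte markers. Both stood apart in these sums, the pair was picked after seeing the data, and several list counts are given with and without them. By median correlation with the other libraries, day 2 at ZT00 was lowest (0.905). Day 2 at ZT08 (0.917) and replicate 2 of day 4 at ZT12 (0.920) were also below replicate 2 of day 5 at ZT06 (0.921).

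**Figure D1:**
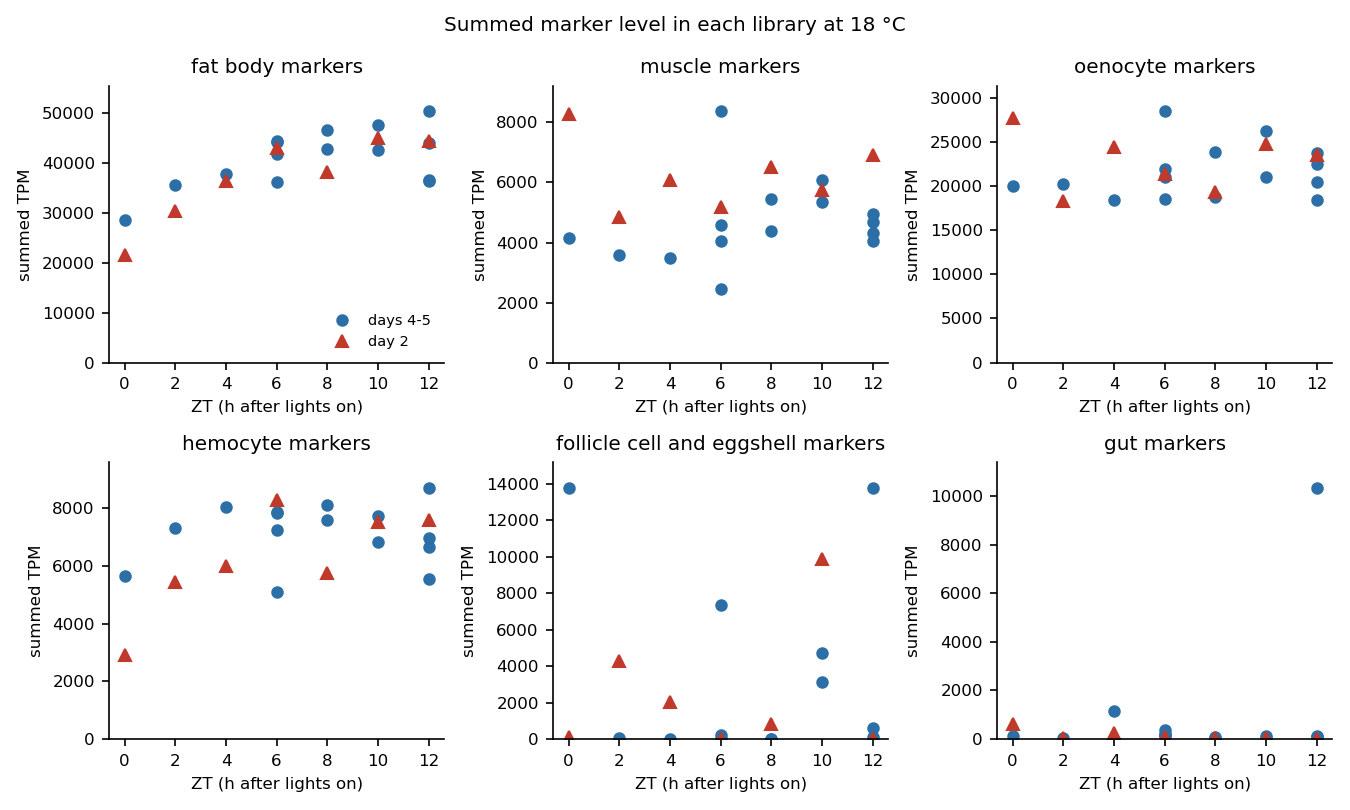
Summed TPM of marker lists for 6 cell types against ZT (hours after lights on), with 1 point per library, for day 2 (triangles) and days 4-5 (circles) at 18°C. Muscle markers lay between 4845 and 8274 TPM on day 2 and between 2458 and 8377 TPM on days 4-5, and the lowest fat body sum was that of day 2 at ZT00.

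Genes lower on day 2 included the purine nucleoside phosphorylase CG16758, MsrA and the iron carrier Tsf1, and genes higher on day 2 included ImpL2, Pdk1 and Myc. With ZT as a factor in limma, 83 of 7458 genes (1.11%) differed at an adjusted p under 0.05. Of these, 36 were higher on day 2 (0.483%) and 47 lower (0.63%), and 1163 genes passed an unadjusted p of 0.05. Differences of at least 1 on the log2(TPM + 1) scale were seen for 9 of the higher and 13 of the lower genes. Day 2 was higher at all 7 times for 34 of the 36 and lower at all 7 times for 38 of the 47. The number called was sensitive to single libraries. It was 53 without day 2 at ZT00, 319 without replicate 2 of day 5 at ZT06 and 185 without both, and it fell to between 20 and 53 when any 1 of the 7 day 2 libraries was left out. Of the 83, 14 were called in all 23 leave-out fits (each single library, or all of replicate 2). None of the 83 genes changed direction in the 38 alternatives run, which reuse libraries that selected them and so are no independent check. In bulk tissue, fewer cells of a type and less RNA per cell cannot be told apart.

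Among the genes lower on day 2, CG16758 (FBgn0035348, chromosome 3L, 2499372 to 2503606), a predicted purine nucleoside phosphorylase, had 21.2, 219, 118, 122, 77.8, 103 and 70.6 TPM at ZT00 through ZT12 of day 2. On days 4-5 its levels ran from 157 through a median of 322 to 576 TPM. The groups overlapped only because of day 2 at ZT02, and at every time day 2 was below the settled mean. The fitted difference was -1.77 on the log2(TPM + 1) scale (SE 0.238, limma adjusted p = 0.00259), and the call held without each library in turn.

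MsrA (FBgn0000565, chromosome 3L, 15511052 to 15513202) encodes methionine sulfoxide reductase A, which repairs oxidised methionine. Its levels on day 2 were 37.4, 50.7, 138, 156, 97.6, 78.6 and 149 TPM from ZT00 to ZT12, against 137 to 502 TPM on days 4-5 (median 296). Day 2 was lower at all 7 times, and the groups overlapped at their edges. The fitted difference was -1.56 (SE 0.243, limma adjusted p = 0.00458).

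CG9512 (FBgn0030593, chromosome X, 14901844 to 14905549), of the GMC oxidoreductase family, gave 167, 111, 142, 188, 58.1, 117 and 87.0 TPM on day 2. All 15 settled libraries were higher, between 217 and 457 TPM (median 312), so the groups did not overlap. Over all tested genes, day 2 lay wholly below the settled libraries for 0.0536% and wholly above for 0.161%. The difference in CG9512 was -1.42 (SE 0.174, limma adjusted p = 0.00121).

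Among called genes, CG6495 (FBgn0027550, chromosome 2L, 10761116 to 10764971) had the fitted difference furthest below 0. It was at 5.69 to 13.2 TPM on day 2 (median 11.8) and 17.7 to 127 TPM on days 4-5 (median 52.8). The settled libraries varied widely among themselves, yet none reached down to day 2. The difference was -2.26 (SE 0.339, limma adjusted p = 0.00387).

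Tsf1 (FBgn0022355, chromosome X, 18387084 to 18390344), the secreted iron carrier transferrin 1, was at 574, 403, 529, 1215, 1157, 458 and 581 TPM on day 2. Its settled libraries ran from 991 to 2404 TPM (median 1565). Day 2 at ZT06 and ZT08 reached into the settled range, and the settled mean was higher at all 7 times. The difference was -1.17 (SE 0.214, limma adjusted p = 0.0156), and it no longer passed the threshold without day 2 at ZT12. No other of the 7 tested genes of iron storage and transport passed an unadjusted p of 0.05.

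**Figure D2:**
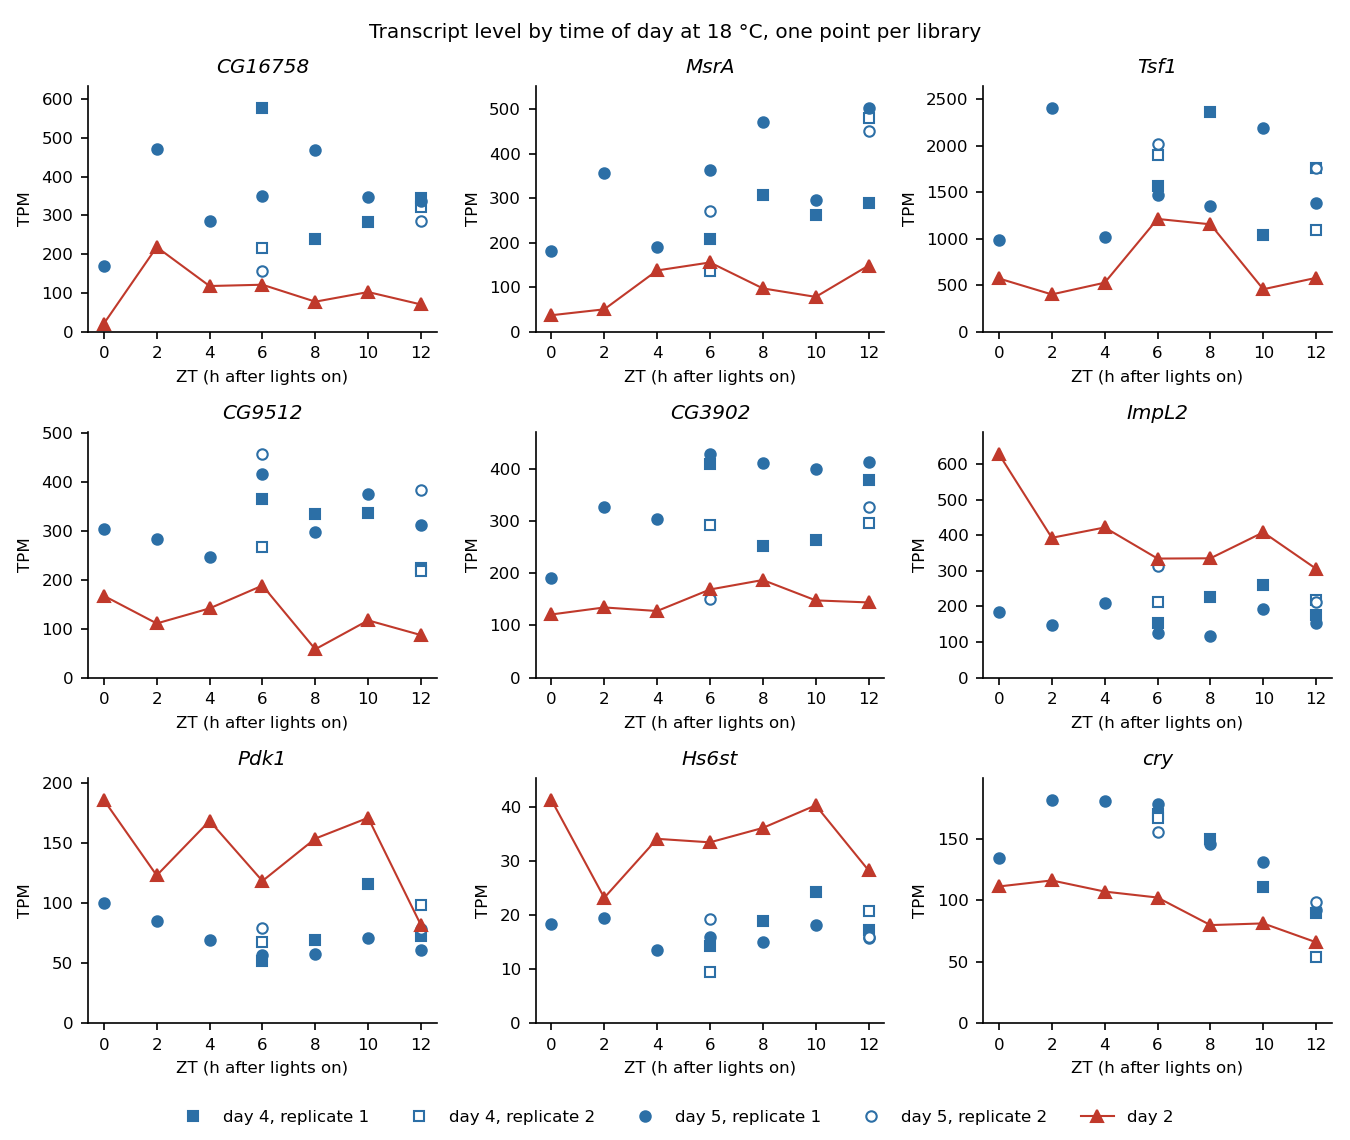
TPM against ZT for 9 genes at 18°C, with 1 point per library: day 2 as triangles joined by a line, day 4 as squares and day 5 as circles, with replicate 2 as open symbols. CG9512 on day 2 stayed at or under 188 TPM while all settled libraries were at or above 217 TPM, and ImpL2 on day 2 stayed at or above 306 TPM.

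Genes averaging at least 10 TPM were ranked by the size of their difference. CG3902, of the acyl-CoA dehydrogenase family, was at 121 to 187 TPM on day 2 and 150 to 428 TPM on days 4-5. The settled library within the day 2 range was replicate 2 of day 5 at ZT06, and the difference was -1.02 (SE 0.182, limma adjusted p = 0.0146). CG31075, an aldehyde dehydrogenase, averaged 18.3 ± 6.98 TPM on day 2 (SD, n = 7) and 49.4 ± 21.7 TPM on days 4-5 (SD, n = 15). CG9498 averaged 83.5 ± 24.9 and 199.9 ± 59.1 TPM, and CG43071 averaged 26.8 ± 20.8 and 55.7 ± 16.6 TPM. CG43071 is the least firm of these, since leaving out single libraries of either group removed its call. CG8646, at a level too low for that ranking, had the smallest p of all, with 0.90 to 2.06 TPM on day 2 and 2.51 to 6.75 TPM on days 4-5 (difference -1.14, SE 0.105). CG8646 passed the filter only through days 4-5 (median 5.15 TPM, against 1.45 TPM on day 2), which favoured a difference below 0.

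Several smaller differences below 0, picked out after their values were seen, were in enzymes of pterin, purine and amino acid metabolism. Sptr, sepiapterin reductase, averaged 42.4 ± 9.55 TPM on day 2 and 72.6 ± 15.9 TPM on days 4-5 (difference -0.85, SE 0.128, limma adjusted p = 0.00387). Pcd, a pterin dehydratase, DhpD, a dihydropterin deaminase, and ry, xanthine dehydrogenase, were lower on day 2 by 0.51, 0.68 and 0.86. Got1, an aspartate aminotransferase, was at 153 to 220 TPM on day 2 and 184 to 429 TPM later, and hgo, which breaks down homogentisate, differed by -0.63. Calls held in all 23 leave-out fits for Sptr, 17 for Pcd, 11 for Got1, 7 for ry, 6 for DhpD and 5 for hgo. These genes were not a list under test, so no count is given for the theme.

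Of the genes higher on day 2, ImpL2 (FBgn0001257, chromosome 3L, 4224006 to 4236147), the secreted antagonist of insulin-like peptides, had 627, 393, 422, 334, 335, 408 and 306 TPM from ZT00 to ZT12. Settled levels ran from 118 to 314 TPM (median 192). One settled library, replicate 2 of day 5 at ZT06, reached the day 2 range. The difference was 1.03 (SE 0.177, limma adjusted p = 0.0126). CG46460 (115.3 ± 32.4 TPM on day 2 and 44.9 ± 14.5 TPM later, difference 1.33, SE 0.211) shares exon bases with ImpL2, so in non-stranded libraries their reads cannot be fully told apart.

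Pdk1 (FBgn0020386, chromosome 3L, 129450 to 145895), the kinase that activates Akt and S6k, was at 186, 123, 169, 119, 154, 171 and 81.8 TPM on day 2. On days 4-5 it was at 52.4 to 116 TPM (median 71.5), so that only day 2 at ZT12 lay within the settled range. The difference was 0.81 (SE 0.147, limma adjusted p = 0.0156), and the call was lost without day 2 at ZT04 or at ZT06.

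Hs6st (FBgn0038755, chromosome 3R, 19929277 to 20008512), which adds sulfate to heparan sulfate chains, gave 41.3, 23.3, 34.2, 33.5, 36.2, 40.4 and 28.3 TPM on day 2. Settled libraries were at 9.52 to 24.3 TPM (median 17.2), and day 2 at ZT02 alone overlapped them. The difference was 0.92 (SE 0.133, limma adjusted p = 0.00351), and it was called without each library in turn.

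CG7409, of the small heat shock protein family, was at 48.6 to 81.2 TPM on day 2 and 23.4 to 60.9 TPM on days 4-5 (difference 1.01, SE 0.155, limma adjusted p = 0.00387). The gene kar, of the monocarboxylate transporter family, was at 58.6 to 152 TPM and 26.7 to 110 TPM (difference 0.87, SE 0.177). CG4000, CG40486, CG1136 and CG33521 completed the 10 largest differences above 0 at a mean of at least 10 TPM. CG33521 was called in 4 of the 23 leave-out fits, CG40486 in 13, and CG4000 and CG1136 in 20 each. In CG1136 and CG40486 the day 2 library at ZT00 was far above the others, at 80.8 and 131 TPM. Larger or similar differences above 0 were called at lower levels. They were seen in lncRNA:CR45402 (0.67 TPM on days 4-5 and 5.35 TPM on day 2), Scp1 (2.55 and 8.13 TPM) and snsl (2.05 and 6.76 TPM). Of these, snsl did not overlap between the groups. Their settled medians were 0, 2.59 and 2.22 TPM, so each passed the filter of 5 TPM only through day 2. The filter thus favoured a difference above 0 in these genes.

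**Figure D3:**
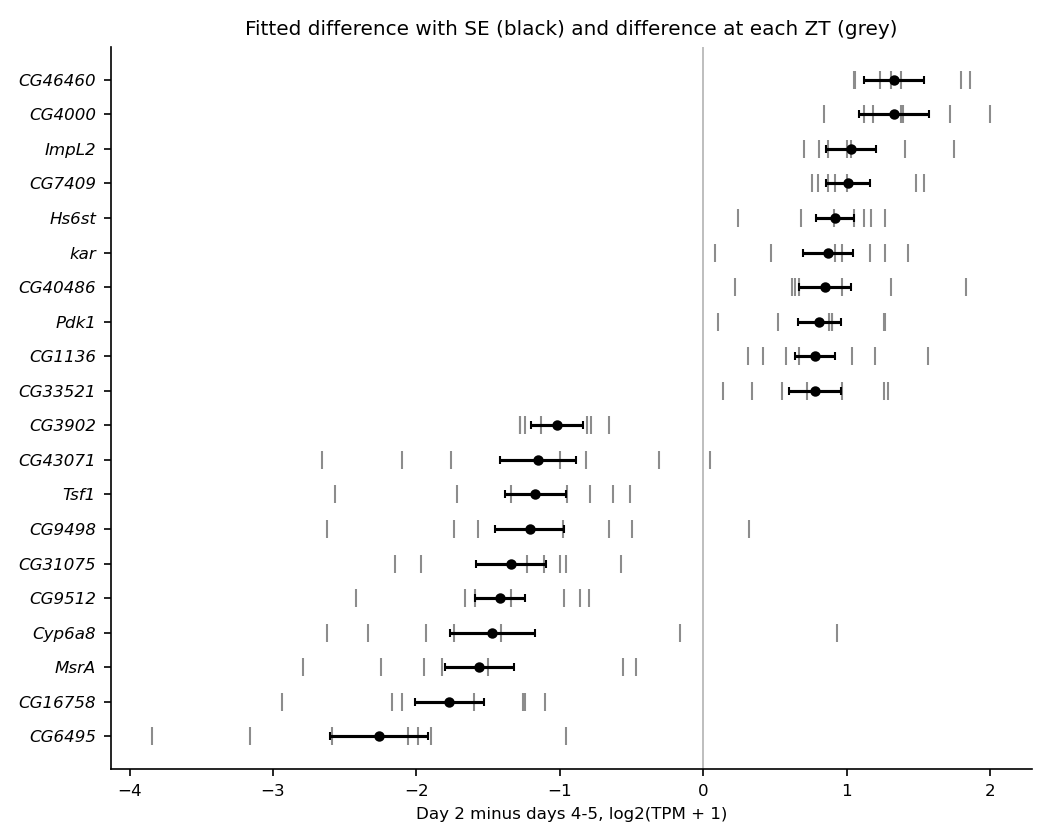
Fitted difference of day 2 minus days 4-5 on the log2(TPM + 1) scale with its SE (black), and the difference at each of the 7 times (grey). Shown are the 10 ranked genes furthest above 0 and the 10 furthest below 0. Differences ran from -2.26 in CG6495 to 1.33 in CG46460, and Cyp6a8, CG9498 and CG43071 each had 1 time on the other side of 0.

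Further genes above the threshold belong to growth and nutrient control, named here after their values were seen. Myc was at 21.2 to 45.1 TPM on day 2 and 11.6 to 28.3 TPM on days 4-5 (difference 0.63, SE 0.132, limma adjusted p = 0.0272). The gene scyl, an inhibitor of TOR in flies, averaged 61.3 ± 12.6 TPM on day 2 and 35.8 ± 7.25 TPM later. DOR, a regulator of autophagy, averaged 189 ± 27.8 and 119 ± 23.3 TPM. The autophagy receptor ref(2)P averaged 1322 ± 257 and 864 ± 170 TPM (difference 0.56, SE 0.126, limma adjusted p = 0.0403). The calls held in 21 of the 23 leave-out fits for DOR, 17 for scyl, 15 for Myc and 8 for ref(2)P.

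In the list of insulin and TOR signalling, ImpL2 and Pdk1 were the 2 of 19 tested genes that were called, and 8 passed an unadjusted p of 0.05, all higher on day 2. Over all tested genes 7.33% passed that unadjusted threshold in the higher and 8.26% in the lower direction. The 8 included the receptor InR (9.08 TPM on day 2 and 5.03 TPM later), S6k, foxo and Thor, the translation inhibitor that foxo activates. The median difference of the list was 0.19, against 0.00 over all tested genes. With the muscle marker score as a covariate the median was 0.02, with 1 gene called and 3 passing as higher against 2 as lower.

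Differences in genes of the translation machinery were small and mostly above 0. Of 87 tested cytosolic ribosomal protein genes, RpS6 and RpL6 were called, 59 passed the unadjusted threshold as higher and 0 as lower, and 86 had a difference above 0. RpS6 averaged 2608 ± 103 TPM on day 2 and 2085 ± 186 TPM on days 4-5 (difference 0.33, SE 0.074, limma adjusted p = 0.0403), and its groups did not overlap. RpL6 averaged 2818 ± 101 and 2300 ± 186 TPM. In the 23 leave-out fits RpS6 was called in 9 and RpL6 in 5. The list median was 0.19, and it stayed between 0.15 and 0.29 under the 10 other settings compared. The list summed to a median of 252579 TPM on day 2 and 216988 TPM on days 4-5, and since TPM sum to a fixed total, a larger share of these transcripts goes with a smaller share of others. With TPM rescaled, 0 ribosomal protein genes were called and 40 passed the unadjusted threshold.

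Of 35 tested translation initiation factors, 14 passed the unadjusted threshold as higher and 0 as lower (median difference 0.16). The elongation factor eEF1alpha1 averaged 5491 ± 348 TPM on day 2 and 4300 ± 414 TPM later, with groups that did not overlap (difference 0.35, SE 0.0787, limma adjusted p = 0.0412). The eEF1alpha1 call held in 5 of the 23 leave-out fits. All 26 tested ribosome biogenesis genes had differences above 0, and 8 passed the unadjusted threshold. Non1, a nucleolar GTPase of large subunit assembly, had the smallest p of these (0.68, SE 0.193, limma adjusted p = 0.0858). All 32 tested proteasome genes were above 0 and 26 passed the unadjusted threshold (median 0.22), but 0 were called. Without day 2 at ZT00, 13 proteasome genes passed, without replicate 2 of day 5 at ZT06, 27 passed and 5 were called, and against day 4 only 0 passed. With the muscle marker score as a covariate the proteasome median was 0.08 and 0 passed, while 79 of 87 ribosomal protein genes passed as higher. Without replicate 2 of day 5 at ZT06, 12 ribosomal protein genes were called. Against day 4 only, 6 ribosomal protein genes and 2 initiation factors passed.

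**Figure D4:**
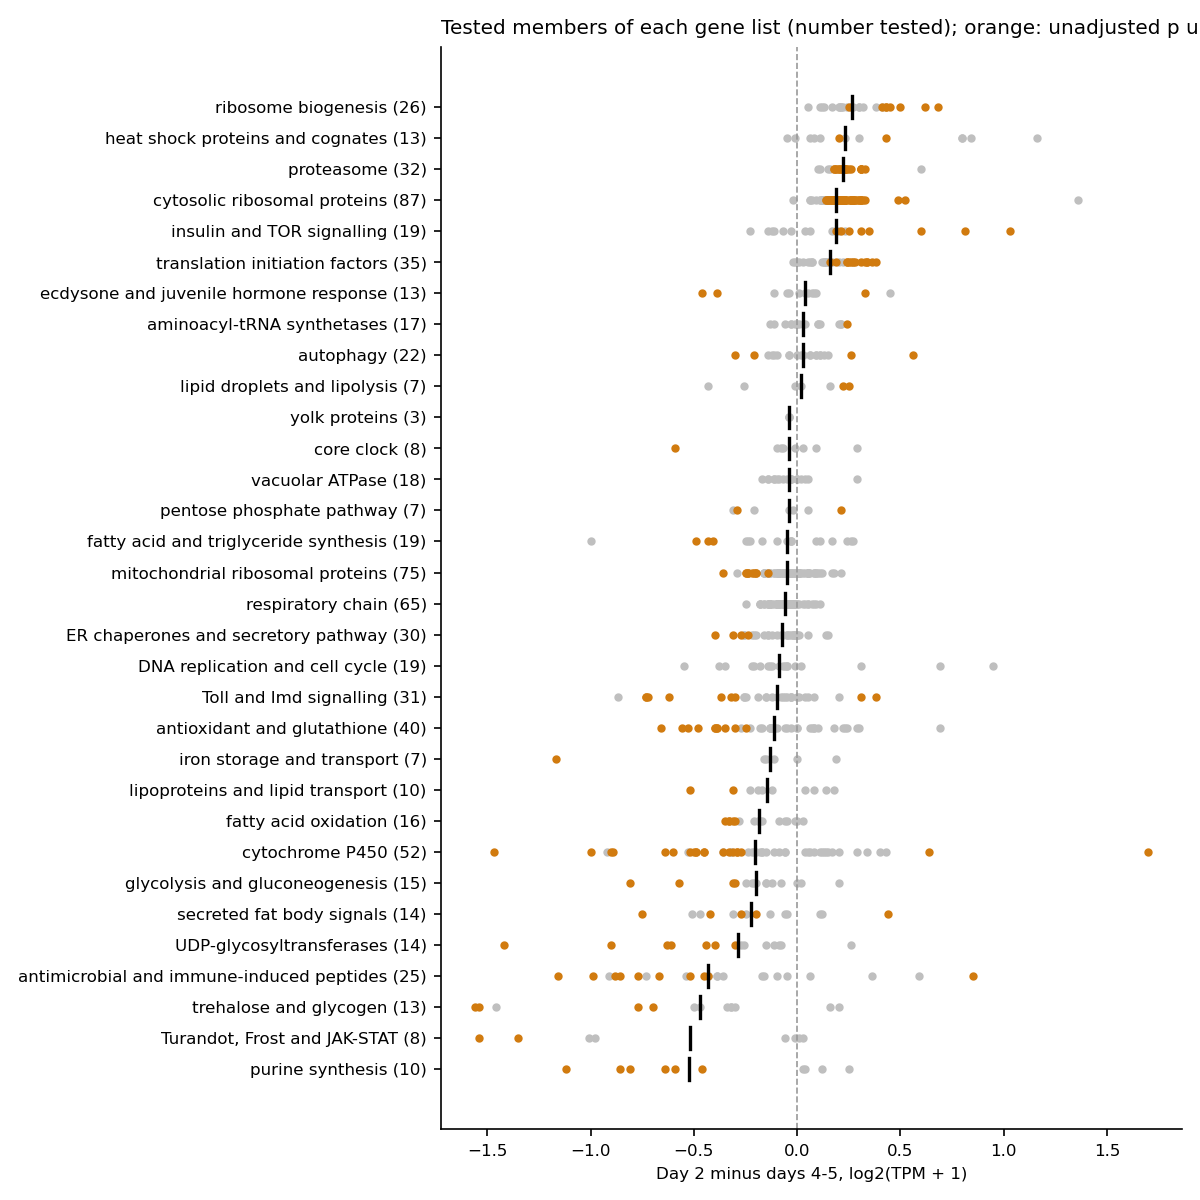
Difference of day 2 minus days 4-5 on the log2(TPM + 1) scale for every tested member of 32 gene lists, 1 point per gene, orange where the unadjusted p was under 0.05, with the list median as a black bar and the median of all tested genes as a dashed line. Ribosomal, proteasome and ribosome biogenesis members lay mostly above 0, and purine synthesis had the lowest median, at -0.53.

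Of 52 tested cytochrome P450 genes, 3 were called lower (Cyp6a8, Cyp4ac2, Cyp6g1) and 1 higher (Cyp4e1), and 18 passed the unadjusted threshold as lower against 2 as higher. Cyp6a8 was at 9.39 to 21.4 TPM in 6 day 2 libraries and at 107.1 TPM at ZT02, against 24.1 to 89.1 TPM on days 4-5 (difference -1.47, SE 0.295, limma adjusted p = 0.0259). Cyp6g1, which confers resistance to DDT when overexpressed, averaged 130 ± 54.8 TPM on day 2 and 268 ± 83.9 TPM later. Of 14 tested UDP-glycosyltransferases, 7 passed the unadjusted threshold as lower and 0 as higher, with Ugt36A1 called. Of 40 antioxidant and glutathione genes, 11 passed as lower and 0 as higher, with GstT1 called. In the 23 leave-out fits Cyp4e1 was called in 18, Cyp6a8 in 17, Cyp4ac2 in 11 and Cyp6g1 in 5. Ugt36A1 was called in 14 of them and GstT1 in 6. Without day 2 at ZT00 the calls were 1 lower and 0 higher among P450 genes and 0 in the other 2 lists. Without replicate 2 of day 5 at ZT06 they were 7 lower and 2 higher among P450 genes, 3 lower among UDP-glycosyltransferases and 4 lower among the glutathione list.

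In the lists of purine synthesis, trehalose and glycogen, and glycolysis, the number called depended on the libraries and the model used. In the main fit 0 members of these lists were called. The called genes CG16758 and ry, described above, are not in them. Without replicate 2 of day 5 at ZT06, 4 purine synthesis genes, 5 of trehalose and glycogen and 2 of glycolysis were called lower, and with the replicate block 5, 6 and 5 were. Of 10 genes of purine synthesis, 6 passed the unadjusted threshold as lower and 0 as higher (median -0.53). Prat2, which carries out the first step of the pathway, averaged 113 ± 42.6 TPM on day 2 and 236 ± 88.9 TPM on days 4-5 (difference -0.86, SE 0.214, limma adjusted p = 0.0584). Of 13 genes of trehalose and glycogen metabolism, 4 passed as lower (median -0.47), among them GlyS, glycogen synthase, at 113 ± 22.3 and 187 ± 57.5 TPM. One of the 4, the amylase Amy-d, also serves as a gut marker, and gut markers in the settled group were dominated by a single library of day 4 at ZT12 (10346 TPM). In fatty acid oxidation 5 of 16 genes and in glycolysis 4 of 15 passed as lower and 0 as higher. Without day 2 at ZT00, 4 purine synthesis and 3 fatty acid oxidation genes passed as lower. With the muscle marker score as a covariate, 1 gene of purine synthesis, 2 of trehalose and glycogen, 1 of fatty acid oxidation and 1 of glycolysis passed as lower.

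SPE, the protease that activates the Toll ligand, averaged 203 ± 27.2 TPM on day 2 and 321 ± 58.8 TPM on days 4-5 (difference -0.62, SE 0.129, limma adjusted p = 0.0272), and it was the 1 gene called among 31 of Toll and Imd signalling. Of 25 antimicrobial and immune-induced peptides, 9 passed the unadjusted threshold as lower and 1 as higher, and 0 were called (2 lower without replicate 2 of day 5 at ZT06). The Bomanin BomS6 averaged 3371 ± 1429 and 5808 ± 2074 TPM (limma adjusted p = 0.0730). Among 14 secreted signals of the fat body 4 passed as lower and 1, the activin-like ligand daw, as higher (72.2 and 51.8 TPM). The chitinase-like growth factor Idgf4 averaged 776 TPM on day 2 and 1055 TPM later (difference -0.42, SE 0.102, limma adjusted p = 0.0531). Of 8 stress-response genes of the Turandot and JAK-STAT list, TotX and TotM passed as lower, and without day 2 at ZT00 0 passed. Day 2 minus settled at ZT00 was -5.44 for TotX and -5.40 for TotM on the log2 scale, while TotM was at 1.18, 0.98 and 0.24 at ZT02, ZT04 and ZT10. Among the secreted signals 1 gene passed as lower without day 2 at ZT00.

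Of the 8 core clock genes only cry, the blue-light receptor cryptochrome, was called. It was at 111, 116, 107.1, 102.2, 79.9, 81.2 and 65.9 TPM from ZT00 to ZT12 of day 2 and at 53.8 to 181 TPM on days 4-5, so the groups overlapped. Day 2 was below the settled mean at all 7 times (difference -0.59, SE 0.110, limma adjusted p = 0.0173). Exons of cry share bases with neighbouring genes, so part of its reads is uncertain. For tim, per, Clk, cyc, cwo, vri and Pdp1 the differences averaged over the day lay between -0.10 and 0.29, with limma adjusted p-values of 0.391 or more. These averages joined times of opposite sign. For tim, day 2 minus settled was 0.60, 0.89, 0.59, 0.12, -0.08, -0.31 and -1.13 from ZT00 to ZT12. For vri it went from 1.02 at ZT00 to -0.92 at ZT12, and for per from 0.46 at ZT02 to -0.77 at ZT12. Each of these values rests on 1 library of day 2, and a difference in their daily course was not tested.

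Of 65 respiratory chain and 18 vacuolar ATPase subunits, 0 passed the unadjusted threshold, and their medians were -0.06 and -0.04. The 3 yolk protein genes each differed by -0.04. For Yp1 the difference had an SE of 0.0876 (limma adjusted p = 0.911). Of 13 heat shock and cognate genes, 2 passed as higher, Hsp83 (1479 ± 155 and 1108 ± 212 TPM) and Hsc70-4.

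Among attached tissues, muscle transcripts moved with the comparison. Tested oenocyte and Malpighian tubule markers were each split, with 3 differences above and 3 below 0, and hemocyte markers had 5 above and 2 below. The sum over all 8 listed hemocyte markers went the other way, averaging 6208 TPM on day 2 and 7138 TPM on days 4-5. Of 14 tested muscle markers all had differences above 0, 10 passed the unadjusted threshold and 0 were called, with a median of 0.49. Without replicate 2 of day 5 at ZT06, the settled library with the highest muscle sum, 10 were called and 13 passed, and without both libraries that stood apart 5 were called. The structural muscle transcript up (troponin T) averaged 566 TPM on day 2 and 369 TPM on days 4-5. With the muscle score as a covariate, 326 genes were called (67 higher, 259 lower), 39 of the 83 among them. Of the 10 ranked genes furthest below 0 on day 2, 8 kept their call in that fit, the exceptions being CG3902 and CG43071. Of the 10 furthest above 0, 4 kept theirs, and ImpL2, CG1136, CG4000, kar, CG40486 and CG33521 did not. All 13 tested germline markers and all 5 tested eggshell markers also had differences above 0 (medians 0.65 and 1.56). All 6 tested gut markers had differences below 0 (median -1.04), with 1 of the 24 past the unadjusted threshold. The sum over all 17 listed eggshell markers averaged 2433 TPM on day 2 and 2912 TPM on days 4-5. With the scores of these 3 tissues as covariates 31 genes were called, all of them among the 83. The part of attached tissues in these results was not tested.

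Whether the settled state itself still moved was examined by comparing day 4 with day 5 at ZT06 to ZT12, in 12 libraries with ZT and replicate number in the fit. Here 0 of 7458 genes (0%) were called by limma, and 124 passed an unadjusted p of 0.05. The 124 are a smaller share of the 7458 than 0.05, the share that passes when nothing differs. Being among them therefore does not mark a gene as changed. MsrA averaged 281 ± 116 TPM on day 4 and 393 ± 96.1 TPM on day 5, and ImpL2 208 ± 37.9 and 186 ± 72.4 TPM, and neither was called. MsrA was among the 124 (day 4 minus day 5 of -0.55, limma unadjusted p = 0.0174), and ImpL2 was not (limma unadjusted p = 0.264). CG9512 was also among them (-0.38, limma unadjusted p = 0.0329). The 3 genes with the smallest p were CG17127, CR44391 and CG34423, with limma adjusted p-values of 0.999. Set against day 4 alone, which leaves 4 libraries of day 2 and 6 of day 4, 0 genes were called and 387 passed an unadjusted p of 0.05. The 387 are near the share of 0.05 that passes when nothing differs. Set against day 5 alone, 38 were called.

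Levels on the first day at 18°C are given for a few of these genes. From ZT02 to ZT12 of day 1, in 6 libraries, CG6495 averaged 15.8 ± 3.87 TPM, CG3902 135 ± 24.8 TPM, MsrA 107.1 ± 74.8 TPM and ImpL2 377 ± 166 TPM. The level of ref(2)P was lower than on day 2, at 838 ± 120 TPM, and that of Myc ran from 8.44 to 33.9 TPM. These values are set side by side without a test.

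Whether the same change with days occurred at 25°C could be examined at ZT00, ZT06 and ZT12 only, in 25 libraries. The early state at 25°C rested on 3 libraries, ZT06 and ZT12 of day 1 and ZT00 of day 2. At 18°C the early libraries were all of day 2. At ZT06 and ZT12 the early day and the temperature therefore cannot be told apart. The early minus settled difference was unlike between the 18°C and 25°C libraries for 31 of 7458 genes (0.416%), and 1150 genes passed an unadjusted p of 0.05. Of the 31, 23 were more positive at 18°C and 8 more negative. Over all tested genes the median interaction was 0.11. With TPM rescaled it was -0.05, and the 49 genes then called were 28 more positive and 21 more negative. ImpL2 was higher early at 18°C by 1.03 (SE 0.275) and lower early at 25°C, at -0.89 (SE 0.27), an interaction of 1.92 (SE 0.382, limma adjusted p = 0.0269). For Hs6st the interaction was 1.58 (SE 0.238, limma adjusted p = 0.00892), for Pdk1 1.25 (SE 0.25, limma adjusted p = 0.0269), for Myc 1.35 (SE 0.257, limma adjusted p = 0.0247) and for DOR 1.08 (SE 0.179, limma adjusted p = 0.0168). Of the 83 genes, 12 were among the 31. Both fits used the same 18°C libraries at ZT00, ZT06 and ZT12, so this overlap is no independent check. A gene called for its 18°C difference is more likely to show an interaction. The number called fell to 15, 1 and 5 when ZT06 of day 1, ZT12 of day 1 or ZT00 of day 2 at 25°C was left out. Muscle markers in the 3 early 25°C libraries summed to 5920 to 9010 TPM, against 3180 to 7880 TPM in the settled 25°C libraries.

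**Figure D5:**
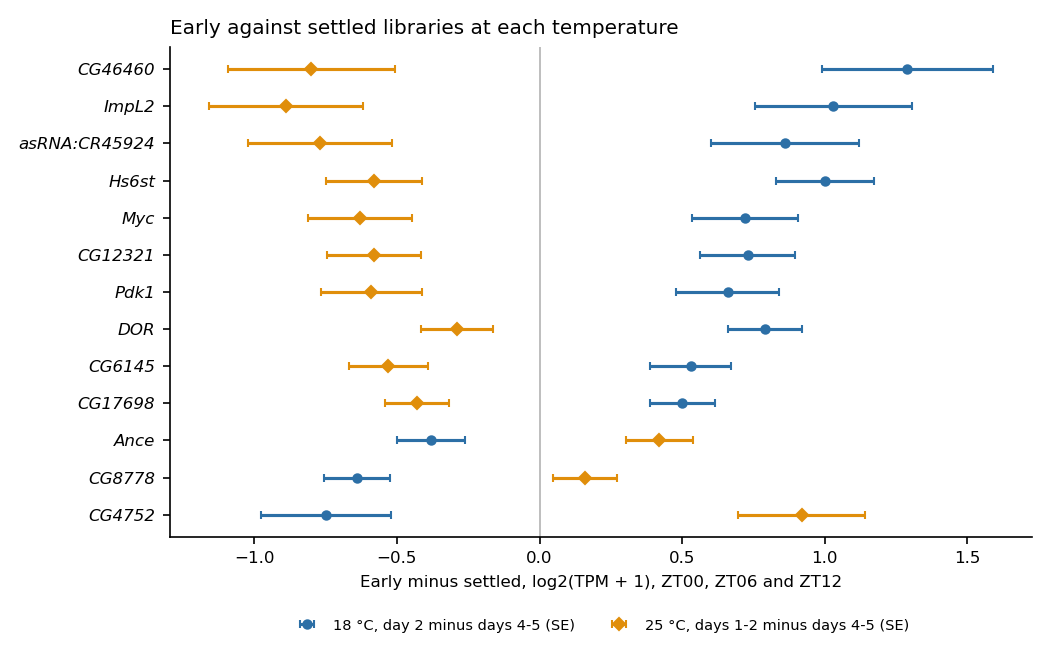
Early minus settled difference on the log2(TPM + 1) scale with its SE for the 13 described genes whose change differed between temperatures, at 18°C (circles) and 25°C (diamonds), fitted over ZT00, ZT06 and ZT12. For each gene the 2 estimates lay on opposite sides of 0, as for ImpL2 at 1.03 and -0.89. Most of these genes had been called for their 18°C difference in libraries used here again. Early libraries were of day 2 at 18°C and mostly of day 1 at 25°C.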

How the data were processed

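The authors aligned reads with STAR 2.7.10a to BDGP6 and quantified them with RSEM, per the labels, and deposited TPM as 1 table, after trimming with Atropos. Libraries were non-stranded and made from polyadenylated RNA. Exons of further described genes share bases with a neighbour, among them CG3902, CG31075, Sptr, Pcd, CG1136, CG4000, SPE and snsl. The same holds for Cyp4e1 with Mal-A1, a listed gut marker. Part of the reads of these genes is therefore uncertain. The study describes removal of duplicate reads, and whether the table holds that version is not stated. TPM keep no depth, so no counting error is given. Here TPM were taken as log2(TPM + 1) and fitted with limma 3.58.1 in R 4.3.3 with ZT as a factor and Benjamini-Hochberg adjustment over 7458 genes. A fold on this scale understates low genes. Settled libraries are unevenly spread over ZT, so group means and the fitted difference need not match. The 10 largest calls per direction with a mean of at least 10 TPM and the same sign at 6 or more times, the clock genes, up to 2 genes per list and the 3 smallest p-values of the other comparisons were named, and further calls are marked as chosen after seeing values. Members and lists were chosen with earlier results of these data known. The fits were tested on simulated data. MsrA was not counted in the ecdysone list, which holds it under an older symbol. Positions are from Ensembl BDGP6.54, in which 7428 tested genes were found. The closing section gives the alternatives tried.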

Additional observations from a re-analysis of the deposited data

Results flagged for a closer look

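In 12 of 144 genes examined, a single day 2 library lay far from the other 6, and 7 of these 12 were the library at ZT00. About 1 in 20 groups is marked by chance. At ZT00, ImpL2 was at 627 TPM against 306 to 422 in the others, CG1136 at 80.8 against 30.96 to 47.1, CG40486 at 131 against 61.0 to 88.4, CG5599 at 57.1 against 33.4 to 42.4 and Jheh2 at 199.6 against 105.6 to 144. Also at ZT00, PGRP-SD was at 36.6 against 126 to 190 TPM and CG14567 at 82.9 against 127 to 148 TPM. Elsewhere Cyp6a8 was at 107.1 TPM at ZT02, PyK at 679 TPM at ZT06, scyl at 86.6 and eEF1alpha1 at 6191 TPM at ZT08, and Cyp4ac2 at 29.6 TPM at ZT10.

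In 13 of the genes the early minus settled difference was unlike at 18°C and 25°C by an interaction term in limma. A positive term means a more positive early minus settled difference at 18°C. The interactions were 1.58 for Hs6st, 2.09 for CG46460, 1.92 for ImpL2, 1.08 for DOR, 1.25 for Pdk1, 1.32 for CG12321, 1.63 for asRNA:CR45924, 1.35 for Myc, 1.06 for CG6145 and 0.93 for CG17698. They were -1.68 for CG4752, -0.79 for Ance and -0.80 for CG8778. Each rests on 3 early libraries at 25°C, of which ZT06 and ZT12 were of day 1 while those at 18°C were of day 2. Most of these genes were called from the same 18°C libraries, so the terms are no independent check.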

How the results depend on the processing

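The count of 83 genes was 82 and 124 with a pseudocount of 0.1 and 5, 71 without a filter on low values, 90 after rescaling and 124 with a variance trend. It moved to 147 with a median above 20 TPM, 191 with ZT as a cosine and sine, 225 without ZT, 535 with library weights, 31 with germline, eggshell and gut scores as covariates, 326 with the muscle score, 185 without both libraries that stand apart, 0 against day 4 only and 38 against day 5 only. The leave-out fits gave 20 to 535, the highest without all of replicate 2, and 14 of the 83 genes were called in all 23. Leaving out the settled library of ZT00, ZT02 or ZT04 gave 53, 36 or 20, the same as leaving out day 2 at that time, and without day 5 at ZT08 it was 54. The weight fit stopped before its tolerance was reached. The leave-outs of settled libraries, the muscle covariate and the pair of libraries were chosen after seeing the data. All 83 genes had exact permutation p-values under 0.05 (1800 arrangements within ZT, the smallest p 0.000556). The permuted statistic was the same fitted difference, in the same libraries that selected these genes. It is therefore no independent check, and these p-values were not adjusted over genes.

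With the replicate block 353 genes were called, 125 higher and 228 lower, including all 83. Day 2 has replicate number 1 only, so the number pairs nothing. For day 4 against day 5 the count stayed 0 without the replicate block and after rescaling. The count of 31 for the temperature difference was 49 after rescaling (28 more positive, 21 more negative), where the median over genes moved from 0.11 to -0.05, and 1 to 15 when an early 25°C library was left out. TPM keep no depth, and 1 library per time on day 2 limits the precision. The causes were not tested.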
